A study of Mus musculus with 10 samples.

Results

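Integrins, laminins and the metalloproteases that cut the extracellular matrix were followed through 5 culture conditions of a mouse embryonic stem cell line. The genes were taken by symbol: integrin alpha and beta names, laminin alpha, beta and gamma chains, the Mmp, Adam and Adamts families and the Timp inhibitors. Of the 20494 lines of the deposited table, symbols stand beside their own values in the first 9865, and only those lines were searched. There 78 symbols matched, and 56 of them reached at least 1 TPM in 2 or more of the 10 libraries. The other 22 did not reach this level and were not tested, and 35 matching symbols on the remaining lines were not analysed here. The 56 genes were then separated by their level in the libraries labelled 2iL, which hold very little fibroblast RNA. A gene was counted as kept when both of those libraries had at least 1 TPM, as lost when both were under it, and as between when only 1 was. This gave 37 kept, 17 lost and 2 between.

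Integrins are cell surface receptors made of an alpha and a beta chain, which bind matrix proteins outside the cell and the actin cytoskeleton inside it through talin, kindlin and the kinase complexes of focal adhesions. Laminins are cross-shaped trimers of an alpha, a beta and a gamma chain and are the main adhesive proteins of basement membranes, including those of the early embryo. Matrix metalloproteases (Mmp) degrade collagens and other matrix proteins, Adam proteases shed proteins from the cell surface, Adamts proteases cut matrix proteoglycans, and tissue inhibitors of metalloproteases (Timp) block many of these enzymes. Embryonic stem cells rely on integrin contact with laminin or fibronectin to attach, and fibroblast feeder layers make large amounts of the same matrix.

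The material was RNA of 1 embryonic stem cell line of strain label C57BL6X129S6F1, with 2 libraries per condition, numbered 3 and 5. All conditions contained 1000 IU mLIF, the cytokine that sustains self-renewal. SL was KO-DMEM with 15% FBS. The other 4 conditions were in serum-free N2B27 with Chir99021, which inhibits GSK3, at 3 µM. To this, CGP77675, which inhibits Src family kinases, was added at 1.5 µM in A2iL, and the compounds written Dim and Mih at 2 µM each in LCDM. The MEK inhibitor PD0325901 was added at 1 µM in both 2iL and 2iL-F. By the labels, 2iL-F was kept without feeder cells and the rest with them. The sources used here do not give the type of feeder cell or say whether feeders were removed before RNA was taken. Whether the 2 libraries of a condition are separate cultures is not stated. The p-values therefore reflect only how far those libraries lay apart, and that spread may be technical. TPM are scaled to gene length and library total and keep no read number. The sequencing depth behind a value is therefore unknown.

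Fibroblast transcripts ran against the feeder labels. Of 40 listed fibroblast markers 35 were found, and their summed level was 5332 to 5569 TPM in the SL libraries, 3959 to 4115 in those labelled 2iL-F, 2921 to 3002 in A2iL, 973 to 1021 in LCDM and 319.6 to 342 in those labelled 2iL. Sfrp1, at 176 ± 6.57 TPM in 2iL and 13.9 ± 0.482 in SL, made up most of the 2iL sum. It was the 1 marker higher there than in SL, and 34 were lower, beside 36.7% and 40.9% of all tested lines. At least 33 of the 35 reached 1 TPM in every library other than those labelled 2iL, where 11 did and 9 to 11 were listed at 0, Dcn and Lox among them. Embryonic stem cell markers, including Pou5f1 and Nanog, were at 1 TPM or more for 10 of 10 genes in every library. Below, 2iL and 2iL-F mean the libraries carrying those labels, and no direction is drawn from them with respect to feeders. In such mixed RNA, fewer fibroblasts and less RNA per fibroblast cannot be told apart. Trophoblast markers (10 found) summed to 176 to 178 TPM in 2iL and 41.0 to 99.0 elsewhere. Most of the 2iL sum was Tfap2c, at 118 ± 6.83 TPM against 23.5 ± 0.409 in SL. Of the 8 tested, 5 were higher and 2 lower in 2iL than in SL, beside 36.7% and 40.9% of all tested lines. Cdx2 averaged 0 TPM in 2iL and 3.66 ± 0.18 in SL, and Gata3 0.576 ± 0.00482 and 1.42 ± 0.0107. Endothelial markers (6 found) summed to 87.0 to 92.1 in 2iL and 16.9 to 64.2 elsewhere. Of the endothelial markers, Pecam1 averaged 71.9 ± 2.18 TPM in 2iL and 6.32 ± 0.0761 in SL, and Vwf 14.4 ± 0.993 and 0.178 ± 0.0104. Flt1 ran the other way, at 0.194 ± 0.0448 TPM in 2iL and 9.71 ± 0.963 in SL, while Cdh5 and Tie1 were under 1 TPM in every condition.

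Of the genes that passed the level filter, 17 of 56, or 30.4%, were lost in 2iL, beside 12.3% of the 14578 tested lines and 10.3% of the 7962 tested lines with a usable symbol. The lost genes were Itga4, Itga7, Itga8, Itga11 and Itgb2 among the integrins, Lama2, Lama4 and Lamb3 among the laminins, Mmp9, Mmp25, Timp2 and Timp3, the proteases Adam8 and Adam33, and Adamts1, Adamts5 and Adamts15. Together they summed to 307 and 313 TPM in SL, 294 and 292 in A2iL, 252 and 247 in 2iL-F, 45.04 and 42.8 in LCDM and 4.02 and 3.72 in 2iL. The 37 kept genes summed to 2143 and 2203 TPM in SL, 1635 and 1585 in A2iL, 1709 and 1680.4 in 2iL-F, 1447 and 1501 in 2iL and 1233 and 1235 in LCDM. Lost genes made up the smaller part of the summed level in every condition, and A2iL, SL and 2iL-F held several times the lost-gene level of LCDM.

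Being kept was a matter of degree. As a percent of the highest mean among the other 4 conditions, the 2iL level of a kept gene ranged from 2.53% to 246% with a median of 65.0%, and that of a lost gene from 0% to 31.7% with a median of 1.55%. The median over all tested lines was 79.6%. Among the kept genes 6 lay under 25% of that level, and 7 were highest in 2iL. Mmp2 at 2.53%, Mmp14 at 8.5% and Lamb1 at 15.7% thus counted as kept although most of their RNA was in other conditions, while Lamb3 counted as lost at 31.7%, being low in every condition. Nearest to the limit were Timp2, with 0.878 and 0.888 TPM in the libraries labelled 2iL, and Lama3, with 1.13 and 1.22. The 2 genes between were Mmp24, with 0.786 and 1.09 TPM, and Mmp28, with 0.996 and 1.19. At the filter itself, the second highest library of Itgb2 had 1.01 TPM and that of Lamb3 1.13, and just outside it Itgam had 0.929 and Itga2b 0.888.

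**Figure D1:**
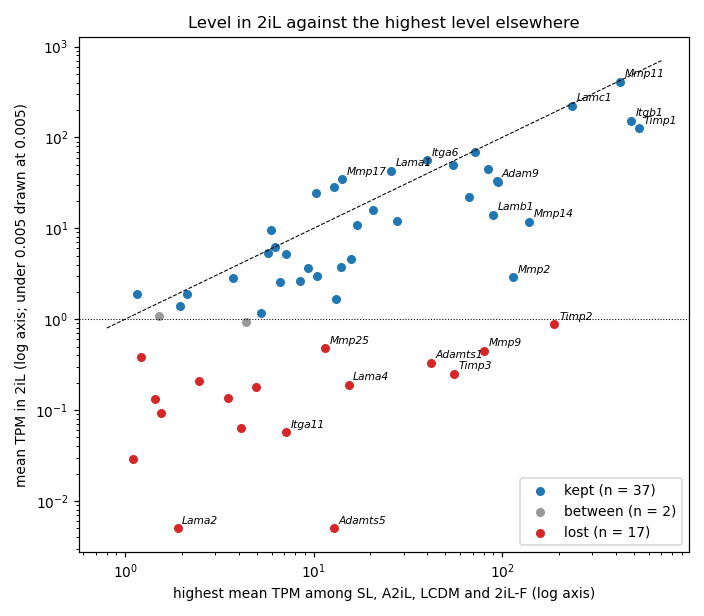
Each point is 1 of the 56 genes, with its highest mean TPM among SL, A2iL, LCDM and 2iL-F on the x axis and its mean TPM in the libraries labelled 2iL on the y axis, both logarithmic (n = 2 libraries per mean); the dotted line is 1 TPM and the dashed line equality. Of the 37 kept genes 7 lie above the dashed line, and the others lie under it, down to Mmp2 at 2.53% of its level elsewhere. The 17 lost genes lie under the dotted line.

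**Figure D2:**
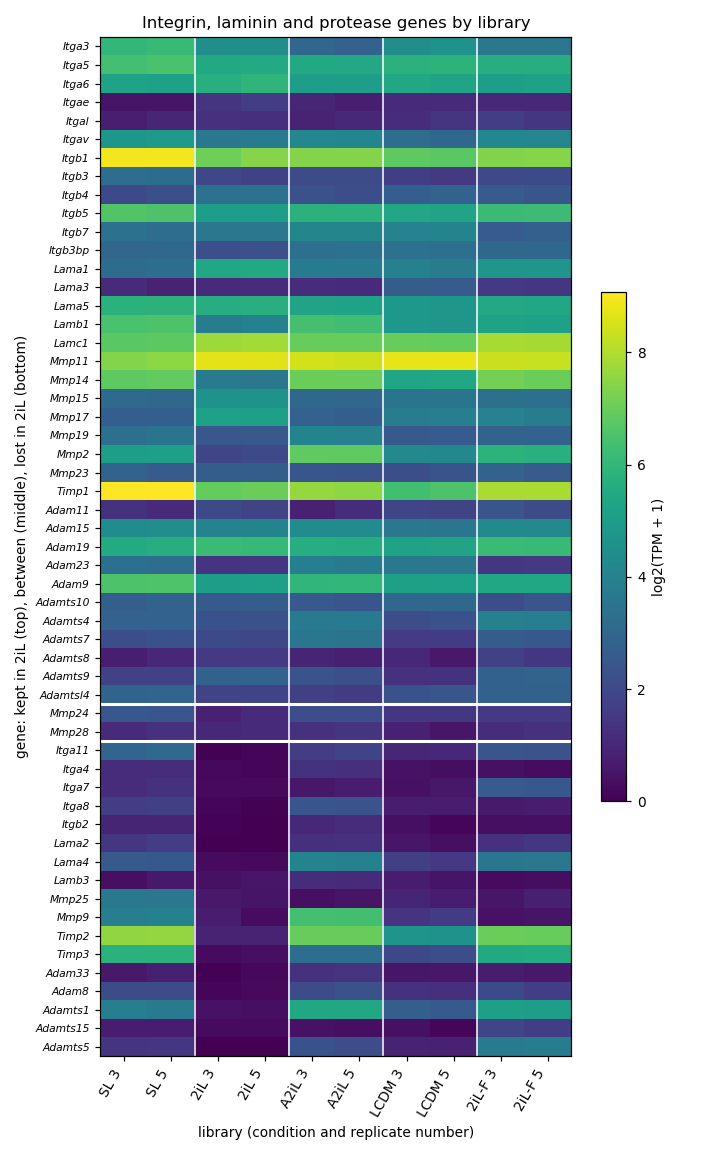
Level of 55 of the 56 genes in each of the 10 libraries as log2(TPM + 1), with kept genes at the top, the 2 genes between in the middle and the 17 lost genes at the bottom. The libraries labelled 2iL are dark for all lost genes, and the LCDM libraries lie between them and the other conditions for Timp2, Timp3 and Adamts1.

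Where 2iL was not the reference, the lost genes took different levels in different media. Counts refer to limma at a Benjamini-Hochberg adjusted p below 0.05 over all 14578 tested lines, and genes pass the level filter partly through the conditions in which they are high, so the counts describe the genes that passed. Adam33, Itgb2 and Lamb3 passed through A2iL alone, Mmp25 through SL alone and Adamts15 through 2iL-F alone. Their differences from the other conditions are partly fixed by the filter, and the counts include those that were called. For A2iL against SL, 19 of the 56 genes were higher and 19 lower, beside 21.9% and 31.9% of all tested lines. Of the lost genes 7 rose, Adam33 and Lamb3 among them, and 5 fell, Mmp25 among them. Of the kept genes 12 rose and 13 fell. Of all tested lines lost in 2iL 16.7% rose and 46.1% fell, and of all kept lines 23.1% and 30.3%. For 2iL-F against SL, 23 were higher and 23 lower, beside 28.1% and 37.3% of all lines, with 5 lost genes higher and 8 lower. All tested lines lost in 2iL had 12.9% higher and 59.4% lower. For LCDM against SL, 13 were higher and 37 lower, beside 32.2% and 33.7%. There none of the 17 lost genes rose (0) and 15 fell, while 13 kept genes rose and 20 fell. Of all tested lines lost in 2iL 7.6% rose and 68.0% fell, and of all kept lines 36.4% and 28.9%. The 13 kept genes that rose (35.1%) were thus near the share of all kept lines. The median change of all tested lines was -0.07 in A2iL, -0.08 in 2iL-F, -0.000293 in LCDM and -0.04 in 2iL, against SL. All of these comparisons share the SL libraries.

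The median change of the lost genes, on the log2(TPM + 1) scale, was 0.11 for A2iL, -0.20 for 2iL-F and -0.90 for LCDM, each against SL. All tested lines that were lost in 2iL by the same limit had medians of -0.32, -0.59 and -0.84. The median of the lost matrix genes was thus above that of all lost lines in A2iL and 2iL-F and close to it in LCDM. Between media, LCDM against A2iL had 14 of the 56 genes higher and 33 lower, beside 31.1% and 22.9% of all tested lines, with 1 lost gene higher and 14 lower. Of all lost lines 10.8% were higher and 53.6% lower. In that comparison 57.6% of all called lines were higher, and 45.6% after median-of-ratios scaling, under which 13 of the genes were higher and 34 lower. A2iL against 2iL-F had 17 higher and 24 lower, beside 22.2% and 23%, with 8 lost genes higher and 5 lower. Of all lost lines 41.1% were higher and 13.2% lower, so the 8 lost genes higher (47.1%) were near the share of their class. Since the split into classes used the 2iL libraries, the comparisons with 2iL are given as description: 15 genes were higher and 36 lower in 2iL than in SL, beside 36.7% and 40.9% of all tested lines, and 28 were higher and 12 lower in 2iL-F than in 2iL, beside 29.2% and 32.5%.

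**Figure D3:**
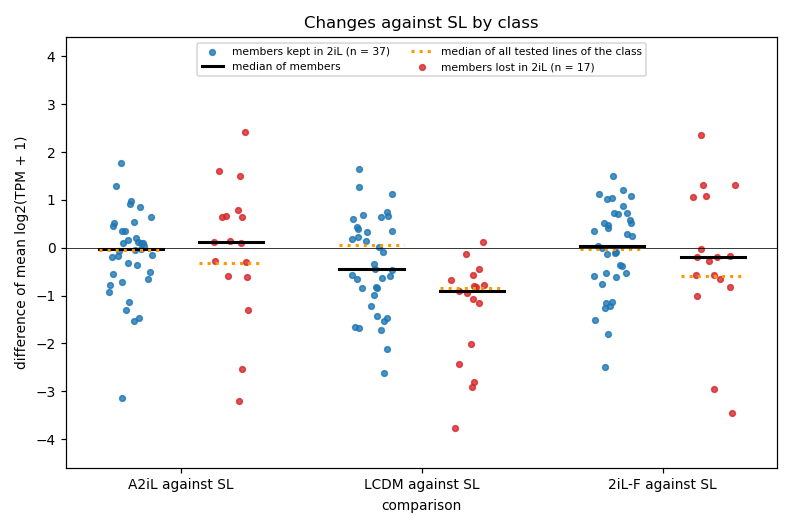
Change of each kept gene (blue, n = 37) and each lost gene (red, n = 17) against SL in A2iL, LCDM and 2iL-F, as the difference of mean log2(TPM + 1); black bars are medians of these genes and dotted bars the medians of all tested lines of the class. The lost genes have a median of -0.90 in LCDM and spread to both sides of 0 in A2iL and 2iL-F.

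Among integrin alpha chains, the fibronectin receptor chain Itga5 and the laminin receptor chain Itga3 were lower in every N2B27 condition than in SL, whereas for the laminin receptor chain Itga6 no fall against SL passed the test. Itga5 (chromosome 15, 103344286 to 103366763; positions are those of mm10, GENCODE vM21) had 81.3 and 87.3 TPM in SL, 44.3 and 43.8 in A2iL, 49 and 49.1 in 2iL-F, 55.8 and 57 in LCDM and 45 and 45.6 in 2iL. Its 2 SL libraries lay above all others, and the change was -0.92 ± 0.05, adjusted p = 1.19e-06 in A2iL and -0.57 ± 0.05, adjusted p = 9.36e-06 in LCDM. Itga3 (chromosome 11, 95044474 to 95076801) had 63 and 69.95 TPM in SL, 6.98 and 6.3 in A2iL, 11.1 and 11 in 2iL-F, 21.4 and 23.5 in LCDM and 22.1 and 21.9 in 2iL. This was the widest fall of a kept integrin: -3.14 ± 0.07, adjusted p = 3.40e-08 in A2iL, where the mean was 10.01-fold lower than in SL, and -2.48 ± 0.07, adjusted p = 2.57e-08 in 2iL-F. LCDM libraries had more Itga3 than A2iL libraries (1.62 ± 0.07, adjusted p = 6.07e-07).

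Itga6 (chromosome 2, 71745616 to 71858416) had 37.2 and 35.4 TPM in SL, 32.2 and 32.5 in A2iL, 33.1 and 35.2 in 2iL-F, 41.2 and 38.4 in LCDM and 51.6 and 60.7 in 2iL. The 2iL libraries were highest, and the changes of A2iL (-0.16 ± 0.08), LCDM (0.13 ± 0.08) and 2iL-F (-0.09 ± 0.08) against SL did not pass the test (adjusted p = 0.12, 0.176 and 0.364). Itgav, the alpha chain of receptors for vitronectin and related ligands, lies on chromosome 2, 83724397 to 83806916. Itgav had 27.2 and 28.1 TPM in SL, 17.6 and 16.9 in A2iL, 17.7 and 17.6 in 2iL-F, 8.52 and 7.37 in LCDM and 11.5 and 12.8 in 2iL. It fell most in LCDM (-1.68 ± 0.08, adjusted p = 2.95e-07). Itgae and Itgal, alpha chains best known from lymphocytes, were low in every library. Itgae (chromosome 11, 73090583 to 73147446) had 0.436 and 0.42 TPM in SL, 0.942 and 0.698 in A2iL, 0.995 and 1.07 in 2iL-F, 1.12 and 1.18 in LCDM and 1.66 and 2.12 in 2iL. Itgal (chromosome 7, 127296260 to 127335138) had 0.684 and 0.966 TPM in SL, 0.83 and 1.06 in A2iL, 2.18 and 1.73 in 2iL-F, 1.24 and 1.55 in LCDM and 1.44 and 1.33 in 2iL. Both were lowest in SL on average, and Itgae was higher in LCDM than in SL (0.59 ± 0.11, adjusted p = 0.00176).

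The lost alpha chains did not share 1 pattern. Itga11, a collagen receptor chain of mesenchymal cells, lies on chromosome 9, 62677826 to 62783982. Itga11 had 6.76 and 7.55 TPM in SL, 2.1 and 2.51 in A2iL, 4.35 and 3.98 in 2iL-F, 0.966 and 1.07 in LCDM and 0.0342 and 0.0803 in 2iL. SL was highest and the order SL, 2iL-F, A2iL, LCDM had no overlap between conditions. Itga7, a laminin receptor chain known from muscle, lies on chromosome 10, 128933818 to 128958282. Itga7 had 1.26 and 1.53 TPM in SL, 0.505 and 0.643 in A2iL, 5.15 and 4.72 in 2iL-F, 0.312 and 0.491 in LCDM and 0.184 and 0.173 in 2iL. It was 3.53-fold higher in 2iL-F than in SL (1.31 ± 0.11, adjusted p = 1.27e-05) and lower in A2iL (-0.61 ± 0.11) and LCDM (-0.78 ± 0.11), with adjusted p = 0.00196 and 3.16e-04. Itga8, which pairs with Itgb1 to bind nephronectin and other RGD ligands, lies on chromosome 2, 12106632 to 12301922. Itga8 had 2.17 and 2.28 TPM in SL, 4.29 and 3.99 in A2iL, 0.57 and 0.652 in 2iL-F, 0.673 and 0.659 in LCDM and 0.0833 and 0.0447 in 2iL. In contrast to Itga7, it was highest in A2iL (0.67 ± 0.09, adjusted p = 3.26e-04) and fell in 2iL-F (-1.002 ± 0.09, adjusted p = 1.73e-05). Itga4, a receptor chain for VCAM-1 and fibronectin, lies on chromosome 2, 79255426 to 79333123. Itga4 had 1.21 and 1.3 TPM in SL, 1.5 and 1.37 in A2iL, 0.313 and 0.244 in 2iL-F, 0.348 and 0.259 in LCDM and 0.138 and 0.13 in 2iL. A2iL differed from SL by 0.11 ± 0.10 (adjusted p = 0.386). The 2iL-F libraries, whose fibroblast sum was 3959 to 4115 TPM, were 4.51-fold below SL (-0.82 ± 0.10, adjusted p = 1.15e-04).

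Itgb1, the beta chain shared by most laminin, collagen and fibronectin receptors, was the most abundant integrin in every library. Itgb1 (chromosome 8, 128685654 to 128733200) had 483 and 479 TPM in SL, 168 and 166 in A2iL, 163 and 173 in 2iL-F, 113 and 106 in LCDM and 135 and 169.7 in 2iL. SL stood apart, with a mean 2.88-fold above A2iL (-1.52 ± 0.09, adjusted p = 3.76e-06), 2.87-fold above 2iL-F (-1.51 ± 0.09, adjusted p = 1.75e-06) and 4.38-fold above LCDM (-2.12 ± 0.09, adjusted p = 2.52e-07). The 2iL, A2iL and 2iL-F libraries overlapped one another, and LCDM was lower. The fibroblast sum of those 3 conditions ranged from 319.6 to 4115 TPM, and its part in the Itgb1 level was not tested. The difference of 2iL-F from 2iL was 0.15 ± 0.09 (adjusted p = 0.199).

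Itgb5, partner of Itgav in a vitronectin receptor, lies on chromosome 16, 33829665 to 33949338. Itgb5 had 97.6 and 92.5 TPM in SL, 55.4 and 54.7 in A2iL, 72 and 73.4 in 2iL-F, 42.1 and 38.9 in LCDM and 32 and 32.9 in 2iL. Here 2iL-F lay above A2iL, LCDM and 2iL without overlap, and its change against SL was -0.38 ± 0.05, adjusted p = 2.42e-04. Itgb3, another partner of Itgav, lies on chromosome 11, 104608000 to 104670476. Itgb3 had 8.62 and 8.24 TPM in SL, 3.25 and 3.33 in A2iL, 3 and 3.06 in 2iL-F, 2.17 and 1.85 in LCDM and 2.82 and 2.48 in 2iL. The serum-free libraries lay under both SL libraries, and the largest fall was in LCDM (-1.65 ± 0.09, adjusted p = 6.30e-07). Itgb7, a beta chain of lymphocyte homing receptors, lies on chromosome 15, 102215995 to 102231944. Itgb7 had 9.41 and 8.54 TPM in SL, 16.9 and 16.9 in A2iL, 5.29 and 5.86 in 2iL-F, 15.3 and 16.2 in LCDM and 11 and 11 in 2iL. It rose in A2iL (0.85 ± 0.07, adjusted p = 2.02e-05) and LCDM (0.75 ± 0.07, adjusted p = 2.27e-05) and fell in 2iL-F (-0.60 ± 0.07, adjusted p = 8.96e-05), so that it was 3.03-fold higher in A2iL than in 2iL-F.

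Itgb4, the hemidesmosome chain that pairs with Itga6, lies on chromosome 11, 115974709 to 116008412. Itgb4 had 3.02 and 3.59 TPM in SL, 3.77 and 3.41 in A2iL, 5.16 and 4.37 in 2iL-F, 5.57 and 6.32 in LCDM and 9.69 and 9.57 in 2iL. The 2iL libraries were highest, and LCDM was above SL (0.69 ± 0.10, adjusted p = 3.89e-04). Itgb2 (chromosome 10, 77530252 to 77565708), the beta chain of leukocyte integrins, was the lost beta chain. Itgb2 had 0.899 and 0.914 TPM in SL, 1.01 and 1.2 in A2iL, 0.293 and 0.286 in 2iL-F, 0.287 and 0.116 in LCDM and 0.0574 and 0 in 2iL. It reached 1 TPM only in A2iL, and its changes rest on levels close to 0. Macrophage markers (8 found) had 6 genes at 1 TPM or more in SL and A2iL and 4 in the other conditions, with a summed level of 36.3 to 43.1 TPM in SL, 91.5 to 93.0 in A2iL, 108 to 112 in 2iL-F, 84.4 to 88.9 in LCDM and 102 to 106 in 2iL. Most of that sum was Laptm5 and Cd68, both lowest in SL. Among the other listed genes, Ptprc averaged at most 0.0826 ± 0.0277 TPM, in SL, and Csf1r from 4.41 ± 0.622 in 2iL-F to 6.12 ± 0.343 in SL. Adgre1 averaged 2.33 ± 0.237 TPM in SL, 3.66 ± 0.166 in A2iL, 0.544 ± 0.0681 in 2iL-F, 0.114 ± 0.00781 in LCDM and 0 in 2iL. Tyrobp averaged 2.12 ± 0.879 TPM in SL, 1.43 ± 0.102 in A2iL, 0.53 ± 0.00869 in 2iL-F, 0.278 ± 0.019 in LCDM and 0.0617 ± 0.0873 in 2iL. The part of macrophage RNA in the level of Itgb2 was not tested. The symbol pattern also caught Itgb3bp (chromosome 4, 99765402 to 99929813), a nuclear and centromere protein that is no integrin subunit, with 6.89 and 7.27 TPM in SL, 9.17 and 9.43 in A2iL, 7.33 and 7.13 in 2iL-F, 9.61 and 8.99 in LCDM and 3.6 and 3.73 in 2iL. It was lower in 2iL than in any other condition.

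Taking the 16 integrin subunits that passed, 2 alpha chains rose and 5 fell in A2iL against SL, 2 rose and 7 fell in LCDM, and 3 rose and 6 fell in 2iL-F, each of 10. For the 6 beta chains the corresponding counts were 1 and 3, 2 and 4, and 1 and 5. Among all tested lines 21.9% were higher and 31.9% lower in A2iL, 32.2% and 33.7% in LCDM, and 28.1% and 37.3% in 2iL-F. Near these shares were the alpha chains higher in A2iL (2) and 2iL-F (3), and the beta chains higher in A2iL (1) and LCDM (2). Median changes in the same order of media were -0.38, -0.78 and -0.64 for alpha chains and -0.34, -0.94 and -0.58 for beta chains. The summed integrin beta level was 602 and 593 TPM in SL, 248 and 246 in A2iL, 249 and 259.8 in 2iL-F, 190.2 and 226 in 2iL and 179 and 169.7 in LCDM, and most of each sum was Itgb1.

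Laminin chains moved unlike one another: the gamma 1 and alpha 1 chains were above SL in 2iL and 2iL-F, where the beta 1 chain was under it. Lamc1, the gamma chain of most laminin trimers, lies on chromosome 1, 153218922 to 153332786. Lamc1 had 106 and 109.5 TPM in SL, 124 and 123 in A2iL, 238 and 230.5 in 2iL-F, 123 and 121 in LCDM and 216 and 227 in 2iL. The 2iL-F libraries differed from 2iL by 0.08 ± 0.04 (adjusted p = 0.129). The 2 conditions lay 2.06-fold and 2.18-fold above SL, and A2iL and LCDM were slightly above it (0.20 ± 0.04 and 0.18 ± 0.04, adjusted p = 0.00475 and 0.00512). Lama1, the alpha chain of laminin-111, the first laminin of the embryo, lies on chromosome 17, 67697259 to 67822647. Lama1 had 8.3 and 8.61 TPM in SL, 11.9 and 12 in A2iL, 26.1 and 25.6 in 2iL-F, 14.7 and 12.9 in LCDM and 41.1 and 44.6 in 2iL. Its order was 2iL, 2iL-F, then LCDM and A2iL, then SL, and the change of 2iL-F against SL was 1.51 ± 0.07, adjusted p = 3.26e-07. LCDM against A2iL (0.19 ± 0.07, adjusted p = 0.0483) passed narrowly and lost its call under 13 of 20 alternatives, among them median-of-ratios scaling (0.10) and without LCDM replicate 3 (0.10).

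Lamb1, the beta chain that joins Lama1 and Lamc1 in laminin-111, lies on chromosome 12, 31265234 to 31329644. Lamb1 had 87.6 and 91.2 TPM in SL, 82.4 and 77.1 in A2iL, 36.9 and 36 in 2iL-F, 27.4 and 25.8 in LCDM and 13.1 and 15 in 2iL. SL and A2iL were close (-0.16 ± 0.07, adjusted p = 0.0807), while LCDM fell (-1.71 ± 0.07, adjusted p = 1.63e-07) and 2iL-F fell (-1.27 ± 0.07, adjusted p = 8.81e-07). The ratio of Lamc1 to Lamb1, in TPM, was 1.20 ± 0.00397 in SL, 1.55 ± 0.0594 in A2iL, 4.6 ± 0.157 in LCDM, 6.42 ± 0.0318 in 2iL-F and 15.8 ± 1.01 in 2iL (SD, n = 2), with no overlap between conditions. Between A2iL and 2iL-F, whose fibroblast sums are given above, A2iL had 2.19-fold more Lamb1 (1.11 ± 0.07, adjusted p = 4.93e-06) and 2iL-F 1.9-fold more Lamc1 (-0.92 ± 0.04, adjusted p = 9.09e-07). Of 25 primitive and parietal endoderm markers 19 were found, cells that also make laminin-111. Their summed level was 972 to 1024 TPM in SL, 1042 to 1085 in 2iL-F, 579 to 591 in A2iL, 482 to 489 in 2iL and 314 to 324 in LCDM. At least 1 TPM was reached by 15 of them in SL, 14 in LCDM, 12 to 13 in A2iL, 12 in 2iL-F and 7 to 10 in 2iL, and at most 1 was at 0 in any library. Sparc was the largest part of the sum in every condition. It averaged 967 ± 26.5 TPM in 2iL-F, 500 ± 18.2 in SL, 441 ± 7.45 in 2iL, 404 ± 0.143 in A2iL and 228 ± 6.04 in LCDM. Of the 16 that were tested, none (0) was higher and 12 were lower than in SL in A2iL, and 1 was higher and 12 lower in LCDM. In 2iL-F 1 was higher and 13 lower, and again in 2iL. Over all tested lines 21.9% were higher and 31.9% lower in A2iL, and 32.2% and 33.7% in LCDM. The shares were 28.1% and 37.3% in 2iL-F, and 36.7% and 40.9% in 2iL. Gata6 averaged 4.54 ± 0.157 TPM in SL and 0.996 ± 0.0502 in 2iL, Pdgfra 5.79 ± 0.178 and 0.122 ± 0.0366, and Gata4, which ran the other way, 3.01 ± 0.314 and 9.17 ± 1.03. The part of endoderm or fibroblast RNA in the laminin levels was not tested.

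Lama5, the alpha chain of laminin-511, on which embryonic stem cells attach and renew, lies on chromosome 2, 180176373 to 180225859. Lama5 had 54 and 56.2 TPM in SL, 38.8 and 37.8 in A2iL, 43.8 and 42 in 2iL-F, 27.3 and 27.1 in LCDM and 48.8 and 50.1 in 2iL. Of Lama5, Lamb1 and Lamc1 it varied least between conditions, with LCDM lowest (-0.99 ± 0.05, adjusted p = 3.42e-07) and A2iL at -0.51 ± 0.05, adjusted p = 3.41e-05. Lama3, the alpha chain of the epithelial laminin-332, had 1.15 and 0.886 TPM in SL, 1.24 and 1.13 in A2iL, 1.87 and 1.71 in 2iL-F, 5.47 and 5.06 in LCDM and 1.13 and 1.22 in 2iL. It was 5.17-fold higher in LCDM than in SL (1.64 ± 0.10, adjusted p = 1.51e-06) and stood apart there from every other condition. Lamb3, the beta chain of the same trimer, lies on chromosome 1, 193207699 to 193343878. Lamb3 had 0.302 and 0.538 TPM in SL, 1.29 and 1.13 in A2iL, 0.216 and 0.264 in 2iL-F, 0.662 and 0.414 in LCDM and 0.318 and 0.448 in 2iL. Lamb3 passed the level filter through A2iL alone, so its high level there is part of how it was chosen and is not tested.

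The lost alpha chains belong to laminins of mesenchyme, muscle and vessels. Lama4, found in vessel and fat basement membranes, lies on chromosome 10, 38965515 to 39110188. Lama4 had 4.85 and 4.66 TPM in SL, 15.9 and 14.7 in A2iL, 10.9 and 11.3 in 2iL-F, 2.3 and 1.86 in LCDM and 0.196 and 0.184 in 2iL. It rose 3.22-fold in A2iL (1.50 ± 0.09, adjusted p = 2.59e-06) and 2.33-fold in 2iL-F (1.07 ± 0.09, adjusted p = 9.54e-06), and fell in LCDM (-0.90 ± 0.09, adjusted p = 2.62e-05). Lama2, the muscle laminin chain, lies on chromosome 10, 26980036 to 27619758. Lama2 had 1.69 and 2.1 TPM in SL, 1.33 and 1.43 in A2iL, 1.43 and 1.69 in 2iL-F, 0.452 and 0.297 in LCDM and 0.00537 and 0 in 2iL. It fell in LCDM (-1.07 ± 0.11, adjusted p = 5.10e-05), and A2iL (-0.28 ± 0.11) and 2iL-F (-0.18 ± 0.11) did not pass the test against SL (adjusted p = 0.0686 and 0.203).

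**Figure D4:**
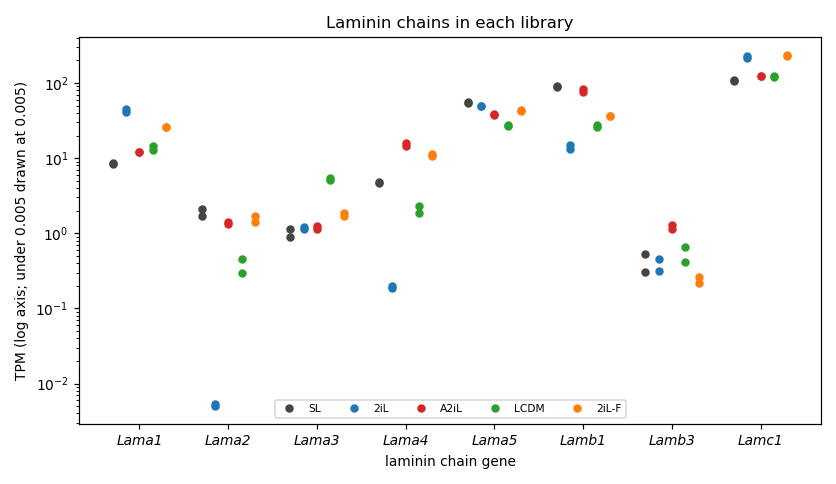
TPM of 8 laminin chain genes in each library on a logarithmic axis, with 2 points per condition. Lamb1 falls from 87.6 and 91.2 in SL to 13.1 and 15.0 in 2iL while Lamc1 and Lama1 rise, and Lama3 stands out in LCDM.

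The gelatinase genes Mmp9 and Mmp2 were highest in A2iL. Mmp9, which cuts denatured collagen and type IV collagen, lies on chromosome 2, 164940780 to 164955850. Mmp9 had 13.7 and 14.8 TPM in SL, 81.4 and 79.4 in A2iL, 0.354 and 0.419 in 2iL-F, 1.59 and 2.07 in LCDM and 0.669 and 0.233 in 2iL. A2iL was 5.65-fold above SL (2.42 ± 0.14, adjusted p = 2.70e-06) and 208-fold above 2iL-F (5.88 ± 0.14, adjusted p = 2.80e-08), and the 2iL and 2iL-F libraries overlapped under 1 TPM. The ratio of 208 is of mean TPM and rests on a 2iL-F mean of 0.387, whereas the bracketed changes are on the log2(TPM + 1) scale. The fibroblast sum was 2921 to 3002 TPM in A2iL and 3959 to 4115 in 2iL-F. Macrophage markers did not share 1 order: Adgre1 was highest in A2iL, Cd68 in 2iL (37.2 ± 0.397 TPM against 21 ± 0.138 in A2iL) and Laptm5 in 2iL-F (78.3 ± 2.04 against 54.5 ± 0.629 in A2iL). Tyrobp, like Adgre1, averaged over 1 TPM in SL and A2iL only. Cd52, like Cd68, was highest in 2iL (11.4 ± 0.603 TPM against 5.9 ± 1.27 in A2iL). The part of either cell type in the Mmp9 level was not tested. Mmp2, the gelatinase of fibroblasts and other mesenchymal cells, lies on chromosome 8, 92827291 to 92853420. Mmp2 had 31.8 and 34.1 TPM in SL, 115 and 114 in A2iL, 57 and 53.3 in 2iL-F, 18.5 and 17.8 in LCDM and 2.73 and 3.05 in 2iL. The A2iL libraries again lay above all others (1.77 ± 0.06, adjusted p = 1.93e-07), with 2iL-F second (0.73 ± 0.06, adjusted p = 1.46e-05) and LCDM under SL (-0.83 ± 0.06, adjusted p = 6.48e-06).

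Mmp14, the membrane protease that activates pro-Mmp2, lies on chromosome 14, 54431612 to 54445364. Mmp14 had 112 and 119 TPM in SL, 131 and 127 in A2iL, 145 and 132 in 2iL-F, 40.5 and 42.1 in LCDM and 12.4 and 11.2 in 2iL. SL, A2iL and 2iL-F lay within 1.19-fold of one another, and LCDM was 2.81-fold below SL (-1.47 ± 0.07, adjusted p = 2.84e-07). The rise in 2iL-F (0.25 ± 0.07, adjusted p = 0.00889) lost its call without SL replicate 3 (0.21) and without 2iL-F replicate 3 (0.19). Timp2, the inhibitor that takes part in the same activation step, is described with the inhibitors. Mmp25, a membrane-anchored protease known from neutrophils, lies on chromosome 17, 23628311 to 23645277. Mmp25 had 11.8 and 11.1 TPM in SL, 0.303 and 0.406 in A2iL, 0.477 and 0.751 in 2iL-F, 0.922 and 0.654 in LCDM and 0.52 and 0.44 in 2iL. Every serum-free library was under 1 TPM. The gene passed the level filter through SL alone and so had to differ, and the changes against SL, from -2.80 in LCDM to -3.20 in A2iL, are given without a test.

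Mmp11 (chromosome 10, 75923222 to 75936496), stromelysin-3, was the most abundant metalloprotease in every library and had 166 and 185 TPM in SL, 353 and 337 in A2iL, 324 and 317 in 2iL-F, 422 and 426 in LCDM and 418 and 404 in 2iL. Every serum-free library was above both SL libraries, by 1.97-fold in A2iL (0.98 ± 0.06, adjusted p = 2.52e-06), 2.42-fold in LCDM (1.27 ± 0.06, adjusted p = 2.43e-07) and 1.83-fold in 2iL-F (0.87 ± 0.06, adjusted p = 2.23e-06). Mmp11 is known from the stroma of tumours. Here it averaged 411 ± 9.92 TPM in 2iL, and the part of fibroblast RNA in its level was not tested in any condition. Mmp17, a GPI-anchored protease, lies on chromosome 5, 129584169 to 129611099. Mmp17 had 5.6 and 5.56 TPM in SL, 6.28 and 5.73 in A2iL, 15.2 and 13.1 in 2iL-F, 13.2 and 13.7 in LCDM and 35.7 and 33.9 in 2iL. It was highest in 2iL, and 2iL-F (1.20 ± 0.08, adjusted p = 2.35e-06) and LCDM (1.13 ± 0.08, adjusted p = 3.39e-06) were also above SL, while A2iL (0.09 ± 0.08) did not pass (adjusted p = 0.365). Mmp15, a membrane-type protease, lies on chromosome 8, 95352268 to 95375080. Mmp15 had 7.6 and 7.18 TPM in SL, 7.37 and 6.89 in A2iL, 9.19 and 9.27 in 2iL-F, 10.4 and 10.3 in LCDM and 24.2 and 24.1 in 2iL. It shared the high level in 2iL, at 234.4% of its highest mean elsewhere, beside 246% for Mmp17.

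Mmp19, a secreted protease, lies on chromosome 10, 128790910 to 128800824. Mmp19 had 9.04 and 10.4 TPM in SL, 16.2 and 15.3 in A2iL, 6.35 and 6.5 in 2iL-F, 4.84 and 5.15 in LCDM and 4.47 and 4.83 in 2iL. It rose in A2iL (0.64 ± 0.08, adjusted p = 2.17e-04) and fell in LCDM (-0.84 ± 0.08, adjusted p = 2.59e-05) and 2iL-F (-0.53 ± 0.08, adjusted p = 4.55e-04). Mmp23 (chromosome 4, 155650655 to 155653384) varied little, with 6.34 and 5.05 TPM in SL, 4.42 and 3.94 in A2iL, 6.19 and 5.08 in 2iL-F, 3.53 and 4.07 in LCDM and 5.47 and 5.35 in 2iL, and its call in A2iL against SL (-0.37 ± 0.12, adjusted p = 0.0322) was lost under 7 of 20 alternatives, among them leaving out SL replicate 3 (-0.23). Mmp24 (chromosome 2, 155775342 to 155818366), a membrane-type protease known from the nervous system, fell from 4.53 and 4.19 TPM in SL to 1.7 and 1.79 in LCDM (-0.96 ± 0.10, adjusted p = 3.30e-05). In 2iL-F it had 1.85 and 1.81 TPM, and in A2iL 3.49 and 3.45. Mmp28 (chromosome 11, 83440768 to 83463071), epilysin, had at most 1.56 TPM in any library and fell in LCDM (-0.50 ± 0.13, adjusted p = 0.00757), a call lost without SL replicate 5 (-0.40) and without LCDM replicate 5 (-0.36). Over the 11 Mmp genes that passed, 4 rose and 3 fell in A2iL, 3 rose and 8 fell in LCDM, and 5 rose and 4 fell in 2iL-F, each against SL. Mmp25, which passed the level filter through SL alone, is among the lower genes in each. The shares of all tested lines, higher and lower, were 21.9% and 31.9% in A2iL, 32.2% and 33.7% in LCDM, and 28.1% and 37.3% in 2iL-F. The Mmp counts were near them for lower genes in A2iL and 2iL-F and for higher genes in LCDM, and the median changes were 0.14, -0.83 and 0.05.

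**Figure D5:**
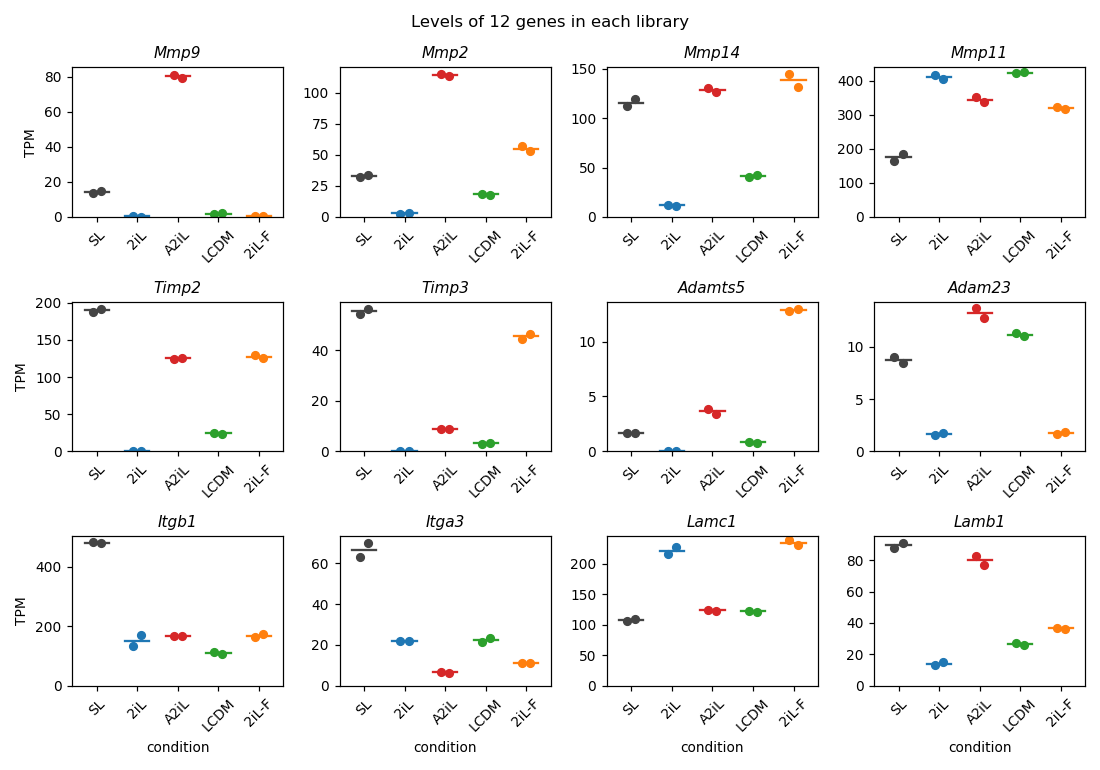
TPM of 12 genes in each library (points) with the mean of the 2 libraries of a condition (bar), each panel on its own linear axis from 0. Mmp9 stands at 79.4 to 81.4 TPM in A2iL and under 1 TPM in 2iL and 2iL-F, Timp3 is high in SL and 2iL-F, and Adamts5 is highest in 2iL-F.

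The 3 inhibitors that passed were all highest in SL and differed in what remained in 2iL. Timp1, a secreted inhibitor of most Mmp enzymes, lies on chromosome X, 20870166 to 20874735. Timp1 had 527 and 539 TPM in SL, 197 and 186 in A2iL, 239.7 and 242 in 2iL-F, 79.6 and 91.4 in LCDM and 122 and 129.7 in 2iL. It was kept in 2iL, with every condition apart from every other, and fell 6.23-fold in LCDM (-2.63 ± 0.07, adjusted p = 1.53e-08) and 2.78-fold in A2iL (-1.47 ± 0.07, adjusted p = 6.95e-07). Timp2 (chromosome 11, 118301069 to 118355740) had 188 and 191 TPM in SL, 125 and 125 in A2iL, 129 and 125 in 2iL-F, 24.9 and 23.8 in LCDM and 0.878 and 0.888 in 2iL. It was lost in 2iL, fell by a similar amount in A2iL (-0.60 ± 0.04, adjusted p = 1.11e-05) and 2iL-F (-0.57 ± 0.04, adjusted p = 6.95e-06) and fell 7.8-fold in LCDM (-2.91 ± 0.04, adjusted p = 1.86e-09). Timp3, which stays bound to the matrix and also blocks Adam and Adamts enzymes, lies on chromosome 10, 86300372 to 86349506. Timp3 had 54.4 and 56.2 TPM in SL, 8.7 and 8.68 in A2iL, 44.3 and 46.4 in 2iL-F, 2.89 and 3.41 in LCDM and 0.215 and 0.283 in 2iL. SL and 2iL-F were high and differed by -0.28 ± 0.07 (adjusted p = 0.00981, a call lost with a pseudocount of 0.1, at -0.28, and without SL replicate 5 or 2iL-F replicate 3, at -0.26 and -0.25). A2iL was 5.22-fold below 2iL-F (-2.26 ± 0.07, adjusted p = 1.81e-07). So Timp2 did not differ beyond its spread between A2iL and 2iL-F (-0.02 ± 0.04, adjusted p = 0.702), while Timp3 did.

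The promoter windows of these 3 genes are shown because 1 was kept in 2iL and the other two were lost. Each is 300 bases long, ends shortly after the transcript start in RefSeq on GRCm38.p6, the assembly also called mm10, and is written in the direction of transcription with CpG dinucleotides in capitals: Timp1 at chrX:20869916-20870215 on the plus strand, Timp2 at chr11:118355362-118355661 on the minus strand and Timp3 at chr10:86300162-86300461 on the plus strand.
Timp1: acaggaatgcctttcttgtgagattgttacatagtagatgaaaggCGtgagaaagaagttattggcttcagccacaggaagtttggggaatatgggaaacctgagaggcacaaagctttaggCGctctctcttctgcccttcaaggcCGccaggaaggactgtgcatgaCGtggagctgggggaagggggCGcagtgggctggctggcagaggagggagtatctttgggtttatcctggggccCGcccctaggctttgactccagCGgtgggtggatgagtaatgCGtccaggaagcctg
Timp2: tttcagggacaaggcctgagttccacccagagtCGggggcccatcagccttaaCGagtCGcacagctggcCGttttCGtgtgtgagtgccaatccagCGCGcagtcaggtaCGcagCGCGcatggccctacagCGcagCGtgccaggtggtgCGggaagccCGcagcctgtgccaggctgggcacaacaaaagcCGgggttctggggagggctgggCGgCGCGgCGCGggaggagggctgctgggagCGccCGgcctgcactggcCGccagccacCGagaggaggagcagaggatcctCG
Timp3: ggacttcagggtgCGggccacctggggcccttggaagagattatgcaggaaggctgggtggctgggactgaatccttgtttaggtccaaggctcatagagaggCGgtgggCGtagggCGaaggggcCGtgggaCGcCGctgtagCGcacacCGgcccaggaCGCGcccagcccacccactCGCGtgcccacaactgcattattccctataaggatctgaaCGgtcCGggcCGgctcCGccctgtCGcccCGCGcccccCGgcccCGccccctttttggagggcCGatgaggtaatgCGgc
The windows hold 8 CpG for Timp1, 25 for Timp2 and 24 for Timp3. RefSeq windows were found for 31 of the 56 genes, 36 windows in all, with a median of 19 CpG, 20 for kept and 16 for lost genes, beside 7 over 32851 windows of all genes. The kept inhibitor, Timp1, had the fewest CpG of the 3, the reverse of the class medians. The AP-1 motif TGANTCA, searched on both strands, was in 2 of the 36 windows, those of Adam19 and Itga3, beside 7.81% of all windows, and in none (0) of the 11 windows of lost genes. A match describes the letters of a window and is no evidence of binding, and its absence says only that these letters are not there.

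The Adam family held abundant kept genes and low lost ones. Adam9, a widely expressed sheddase, lies on chromosome 8, 24949611 to 25016927. Adam9 had 92.5 and 94.7 TPM in SL, 62.6 and 63.9 in A2iL, 41.3 and 41.7 in 2iL-F, 34.9 and 33.8 in LCDM and 32.7 and 33.4 in 2iL. It fell in A2iL (-0.56 ± 0.04, adjusted p = 1.25e-05), 2iL-F (-1.15 ± 0.04, adjusted p = 8.51e-08) and LCDM (-1.42 ± 0.04, adjusted p = 3.05e-08), with SL and A2iL above the rest. Adam19, known to shed neuregulin, lies on chromosome 11, 46055992 to 46147343. Adam19 had 46 and 49.4 TPM in SL, 49.5 and 47.8 in A2iL, 72.4 and 70.5 in 2iL-F, 36.8 and 38 in LCDM and 71.8 and 67.2 in 2iL. The 2iL and 2iL-F libraries overlapped at the top, A2iL was near the SL level (0.03 ± 0.05, adjusted p = 0.684), and LCDM was lower (-0.34 ± 0.05, adjusted p = 5.75e-04). Adam15, a membrane protease with a disintegrin domain, lies on chromosome 3, 89338542 to 89349996. Adam15 had 20.3 and 21.1 TPM in SL, 19.9 and 19.6 in A2iL, 18.9 and 18.5 in 2iL-F, 11.4 and 10.7 in LCDM and 15.6 and 16 in 2iL. LCDM was lowest (-0.84 ± 0.05, adjusted p = 2.19e-06), and A2iL (-0.06 ± 0.05) and 2iL-F (-0.14 ± 0.05) did not pass against SL (adjusted p = 0.366 and 0.0506).

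Adam23, a family member without protease activity that binds integrins, lies on chromosome 1, 63445891 to 63596276. Adam23 had 8.97 and 8.46 TPM in SL, 13.7 and 12.7 in A2iL, 1.7 and 1.87 in 2iL-F, 11.3 and 11 in LCDM and 1.6 and 1.71 in 2iL. It was low in both conditions with the MEK inhibitor, whose libraries overlapped (0.07 ± 0.07, adjusted p = 0.43). A2iL was 7.38-fold above 2iL-F (2.35 ± 0.07, adjusted p = 1.27e-07), and the change of A2iL against SL was 0.55 ± 0.07, adjusted p = 3.33e-04. Adam11, another member without protease activity, lies on chromosome 11, 102761439 to 102780262. Adam11 had 1.52 and 1.14 TPM in SL, 0.802 and 1.27 in A2iL, 4.27 and 3.19 in 2iL-F, 2.73 and 2.6 in LCDM and 3.03 and 2.6 in 2iL. It ran the other way, with A2iL and SL lowest and 2iL-F above SL (1.02 ± 0.16, adjusted p = 4.55e-04). Of the lost members, Adam8, a sheddase known from leukocytes, lies on chromosome 7, 139978932 to 139992562. Adam8 had 3.23 and 3.19 TPM in SL, 3.28 and 3.72 in A2iL, 3.12 and 2.24 in 2iL-F, 1.45 and 1.33 in LCDM and 0.0945 and 0.178 in 2iL. It fell in LCDM (-0.82 ± 0.12, adjusted p = 4.31e-04) and stayed near the SL level in A2iL (0.10 ± 0.12, adjusted p = 0.546). Adam33, expressed by mesenchymal cells, lies on chromosome 2, 131050591 to 131063814. Adam33 had 0.532 and 0.731 TPM in SL, 1.47 and 1.63 in A2iL, 0.646 and 0.55 in 2iL-F, 0.451 and 0.507 in LCDM and 0.0488 and 0.137 in 2iL. It passed the level filter through A2iL alone, so its level there is given without a test.

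The Adamts proteases cut matrix proteoglycans. Of the 8 that passed, 5 rose and 1 fell in A2iL against SL, 7 rose and 1 fell in 2iL-F, and none (0) rose and 6 fell in LCDM. Beside these, 21.9% of all tested lines were higher and 31.9% lower in A2iL, 28.1% and 37.3% in 2iL-F, and 32.2% and 33.7% in LCDM. The 7 higher in 2iL-F include Adamts15, which passed the level filter through that condition alone. The median Adamts change was 0.65 in A2iL, 1.06 in 2iL-F and -0.51 in LCDM. Their summed level was 34.7 and 34.9 TPM in SL, 79.4 and 77.2 in A2iL, 82.1 and 78.8 in 2iL-F, 21.7 and 21.3 in LCDM and 20.4 and 20.7 in 2iL, so the A2iL and 2iL-F sums lay above the others without overlap. The fibroblast markers did not share 1 order: 8 of 35 were higher and 17 lower than in SL in A2iL, 16 higher and 16 lower in 2iL-F, and 1 higher and 32 lower in LCDM. Acta2 and Tagln, at 891 ± 22.8 and 908 ± 34.4 TPM in SL, were at 38.1 ± 1.73 and 26.7 ± 1.16 in 2iL-F. Col3a1 averaged 29 ± 0.28 TPM in SL, 124 ± 4.72 in A2iL and 358 ± 3.15 in 2iL-F, the order of Adamts5. The part of fibroblast RNA in the Adamts levels was not tested. Adamts1, which cuts versican and aggrecan, lies on chromosome 16, 85793827 to 85803113. Adamts1 had 13.8 and 12.5 TPM in SL, 41.7 and 41.8 in A2iL, 34.8 and 33 in 2iL-F, 5.72 and 4.99 in LCDM and 0.364 and 0.295 in 2iL. It rose 3.19-fold in A2iL (1.60 ± 0.08, adjusted p = 1.00e-06) and 2.59-fold in 2iL-F (1.31 ± 0.08, adjusted p = 1.42e-06), and fell in LCDM (-1.15 ± 0.08, adjusted p = 3.13e-06). Adamts5, the main aggrecanase of mouse cartilage, lies on chromosome 16, 85856173 to 85901828. Adamts5 had 1.66 and 1.71 TPM in SL, 3.89 and 3.41 in A2iL, 12.8 and 13 in 2iL-F, 0.841 and 0.785 in LCDM and 0 and 0 in 2iL. The value 0 stood for both 2iL libraries, and the level rose 7.62-fold in 2iL-F (2.37 ± 0.08, adjusted p = 7.15e-08), more than in A2iL (0.79 ± 0.08; 2iL-F and A2iL differed with adjusted p = 1.94e-06).

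Adamts1 and Adamts5 are neighbours on chromosome 16, 53.06 kb apart on the same strand, and their highest conditions differed: A2iL for Adamts1, 2iL-F for Adamts5. Among the windows found, that of Adamts1 is shown because it alone held the TATA motif TATAAA, searched on both strands and present in 13.6% of all windows. It lies at chr16:85803064-85803363 of GRCm38.p6, minus strand, and the capitals mark the motif, which begins at position -32 from the transcript start.
Adamts1: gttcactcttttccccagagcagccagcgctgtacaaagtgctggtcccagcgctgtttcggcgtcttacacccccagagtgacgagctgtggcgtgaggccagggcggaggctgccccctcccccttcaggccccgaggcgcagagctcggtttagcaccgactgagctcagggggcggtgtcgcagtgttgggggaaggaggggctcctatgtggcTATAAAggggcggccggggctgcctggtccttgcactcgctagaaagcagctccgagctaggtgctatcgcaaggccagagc
The window of the other Adamts genes was found for Adamts9 only, with Adamtsl4 beside it, and neither held these letters.

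Adamts15, the third lost member, lies on chromosome 9, 30899155 to 30922452. Adamts15 had 0.602 and 0.659 TPM in SL, 0.351 and 0.3 in A2iL, 2.74 and 2.21 in 2iL-F, 0.328 and 0.0852 in LCDM and 0.211 and 0.207 in 2iL. It passed the level filter through 2iL-F alone, where it was 3.93-fold over SL, a value given without a test. It lies 20.11 kb from Adamts8 (chromosome 9, 30942562 to 30963838), on the opposite strand, which was kept, with 0.703 and 1.06 TPM in SL, 0.911 and 0.752 in A2iL, 2.46 and 1.78 in 2iL-F, 1.01 and 0.555 in LCDM and 1.9 and 1.87 in 2iL. Adamts8 was also highest in 2iL-F (0.73 ± 0.16, adjusted p = 0.00413) but differed little there from 2iL (0.10 ± 0.16, adjusted p = 0.609).

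Adamts4, another aggrecanase, lies on chromosome 1, 171250421 to 171260637. Adamts4 had 6.3 and 6.26 TPM in SL, 12.8 and 12.8 in A2iL, 14.3 and 13.6 in 2iL-F, 3.38 and 3.93 in LCDM and 3.83 and 3.77 in 2iL. It rose in A2iL (0.92 ± 0.07, adjusted p = 1.59e-05) and 2iL-F (1.04 ± 0.07, adjusted p = 3.82e-06) and fell in LCDM (-0.65 ± 0.07, adjusted p = 7.04e-05). Adamts7 (chromosome 9, 90163069 to 90208071) had 3.57 and 3.84 TPM in SL, 10.7 and 10.2 in A2iL, 5.42 and 4.63 in 2iL-F, 2.04 and 2.01 in LCDM and 3.11 and 2.81 in 2iL. The A2iL libraries were highest (1.28 ± 0.09, adjusted p = 7.05e-06) and those of LCDM lowest (-0.64 ± 0.09, adjusted p = 2.47e-04). Adamts9, a protease of versican that is needed in early development, lies on chromosome 6, 92772699 to 92943492. Adamts9 had 2.39 and 2.47 TPM in SL, 4.18 and 3.61 in A2iL, 6.08 and 6.39 in 2iL-F, 1.47 and 1.53 in LCDM and 6.01 and 6.35 in 2iL. Its 2iL and 2iL-F libraries overlapped, both above the rest, and the change of 2iL-F against SL was 1.08 ± 0.08, adjusted p = 6.41e-06. Adamts10, which binds fibrillin, lies on chromosome 17, 33524204 to 33553782. Adamts10 had 5.7 and 6.4 TPM in SL, 4.85 and 4.42 in A2iL, 3.56 and 4.23 in 2iL-F, 6.95 and 7.38 in LCDM and 4.95 and 5.39 in 2iL and was lowest in 2iL-F (-0.53 ± 0.10, adjusted p = 0.00121). Adamtsl4, a fibrillin-binding relative without the protease domain, lies on chromosome 3, 95676201 to 95687917. Adamtsl4 had 6.6 and 6.73 TPM in SL, 2.27 and 1.98 in A2iL, 6.11 and 6.12 in 2iL-F, 3.84 and 4.42 in LCDM and 2.63 and 2.51 in 2iL. The difference of 2iL-F from SL did not pass (-0.11 ± 0.08, adjusted p = 0.288), and A2iL fell (-1.30 ± 0.08, adjusted p = 5.11e-06).

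Exons of Adam8, Adam15, Adam19, Adamts7, Adamts8, Adamts9, Itga4, Itga7, Itga8, Itgb4, Lama2, Lama3, Mmp19, Mmp24 and Mmp28 overlap those of another annotated gene, and the sources used here do not say that strand was used in quantification. Part of the values of these 15 genes may belong to the neighbour. Fold changes on the log2(TPM + 1) scale understate the change of genes near 1 TPM: with a pseudocount of 0.1, 70 of the 313 called changes of the 56 genes moved by over 1.5 times.

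The matrix ligands of these receptors included genes that rose and genes that fell in the same media. Of 12 tested genes of a list of basement membrane components and ligands, 4 were higher and 8 lower in A2iL than in SL, 1 higher and 11 lower in LCDM, 4 higher and 5 lower in 2iL-F, and 3 higher and 9 lower in 2iL. Over all tested lines the shares were 21.9% and 31.9%, 32.2% and 33.7%, 28.1% and 37.3%, and 36.7% and 40.9%, so the 2iL-F counts were near those of all lines. The median changes of the list were -0.45, -1.07, -0.05 and -1.24. Nid2, a nidogen that links laminin to type IV collagen, averaged 86.7 ± 2.69 TPM in SL, 282 ± 17.9 in 2iL-F and 321 ± 16.9 in 2iL. Its change in 2iL-F against SL was 1.69 ± 0.06, adjusted p = 8.60e-08, and in 2iL against SL 1.88 ± 0.06, adjusted p = 1.77e-08, the same direction as Lamc1. Col4a1 and Col4a2, the common chains of type IV collagen, were lower, as was Lamb1: Col4a1 averaged 101 ± 4.03 TPM in SL, 2.31 ± 0.051 in 2iL and 28.5 ± 1.51 in 2iL-F (-1.79 ± 0.07, adjusted p = 8.39e-08), and Col4a2 changed by -1.55 ± 0.06, adjusted p = 1.29e-07. Tnc, tenascin-C, a ligand of fibroblast matrix, averaged 489 ± 15.6 TPM in SL, 0.0053 ± 0.00749 in 2iL and 93.7 ± 2.28 in 2iL-F (-2.37 ± 0.05, adjusted p = 4.52e-09).

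Inside the cell, adaptor proteins and kinases link integrins to actin. Of 20 tested genes of the adhesion complex and tetraspanins, 4 were higher and 14 lower than in SL in A2iL, in 2iL-F and in 2iL, and 4 higher and 15 lower in LCDM. Of all tested lines 31.9% were lower in A2iL, 37.3% in 2iL-F, 40.9% in 2iL and 33.7% in LCDM, and 21.9%, 28.1%, 36.7% and 32.2% were higher. The median changes of the list were -0.76, -0.63, -0.74 and -0.73. Zyx, a focal adhesion protein that responds to tension, averaged 97.8 ± 4.91 TPM in SL, 9.43 ± 0.298 in 2iL and 28.8 ± 0.508 in 2iL-F (-1.73 ± 0.05, adjusted p = 2.59e-08). Parva, an actin-binding partner of integrin-linked kinase, changed by -2.03 ± 0.08, adjusted p = 9.32e-08 in 2iL-F, and Fermt1, a kindlin, by -1.87 ± 0.10, adjusted p = 6.48e-07. Against this direction Cd9, a tetraspanin that associates with integrins, averaged 87.3 ± 1.84 TPM in SL, 659 ± 38 in 2iL and 318 ± 4.18 in 2iL-F (1.85 ± 0.05, adjusted p = 2.25e-08). These partners are used by all adherent cells. The part of fibroblast RNA in their levels was not tested.

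Of 17 tested genes of a list of other matrix proteases and their inhibitors, 11 were higher and 4 lower in A2iL than in SL, 11 higher and 5 lower in 2iL-F, 3 higher and 14 lower in LCDM, and 4 higher and 13 lower in 2iL. The shares of all lines, higher and lower, were 21.9% and 31.9% in A2iL, 28.1% and 37.3% in 2iL-F, 32.2% and 33.7% in LCDM, and 36.7% and 40.9% in 2iL. The median changes of the list were 0.40, 0.43, -0.75 and -0.63. The level of A2m, a broad protease inhibitor, was 0.0738 ± 0.0463 TPM in SL against 6.24 ± 0.00442 in 2iL-F (2.75 ± 0.13, adjusted p = 2.80e-07). Plau, urokinase, averaged 32.5 ± 0.744 TPM in SL, 16.5 ± 1.07 in A2iL and 4.1 ± 0.883 in 2iL-F (-2.73 ± 0.11, adjusted p = 1.52e-07). Like Itga4, it was low in 2iL-F. Pcsk6, a proprotein convertase, rose in 2iL-F (1.67 ± 0.06, adjusted p = 6.48e-08), and Ctsk, the collagen-degrading cathepsin K, rose there too (1.35 ± 0.05, adjusted p = 1.15e-07) from 24 ± 0.629 to 62.7 ± 0.0774 TPM, with 0.112 ± 0.00495 in 2iL.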

How the data were processed

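RNA-seq was made of 10 libraries, 2 per culture condition, from RNA purified with a Qiagen kit and with the NEBNext Ultra library kit, per the labels' protocols. The deposited values are TPM. The submitters' processing notes name Bowtie2, RSEM, DESeq2, R 3.4.2 and mm10 and give no version for the first 3. TPM hold no read number, so neither the depth nor the precision that follows from it is known, and each library's lines add up to 71.0% to 73.0% of a full TPM total.

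Names were used in the first 9865 lines. There a gene's own value separated broadly expressed from tissue-restricted families with an area under the curve of 0.977, against 0.572 in the lines below, where the next line's value gave 0.95. The members and gene lists were chosen with earlier results of these data known. A model with 1 mean per condition was fitted to log2(TPM + 1) of all 10 libraries with limma 3.58.1 (R 4.3.3; moderated variances with a trend), for lines with at least 1 TPM in 2 libraries. The 7 comparisons were two-sided, adjusted by Benjamini-Hochberg over 14578 lines, with a threshold of 0.05.

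Every gene that passed may be named, except 1 that is counted but not reported here, and of each list of partner genes up to 4 called genes with the largest log2 change in 2iL-F against SL. Cell type markers named beside results were chosen after their values were seen. The 2 libraries of a condition correlated across genes at r = 0.992 to 0.994, and their numbers 3 and 5 were not used as a block. The fit was tested on simulated data. Alternatives tried were pseudocount 0.1, filters of 5 TPM or none, scaling by median of ratios or by quantiles, robust moderation, fits of the 4 libraries compared, a replicate block, other limits for lost genes and each library left out in turn. Fits that leave out 2iL, or both 2iL and 2iL-F, and a fit of named lines alone were added after seeing the data. Promoter windows come from RefSeq and positions from GENCODE vM21. Software for tables was pandas 2.3.3 and numpy 2.4.6 under Python 3.11.15, with scipy 1.17.1, and matplotlib 3.10.9 for figures.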

Additional observations from a re-analysis of the deposited data

How the results depend on the processing

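Under every alternative the number of the 56 genes called in each of the 7 comparisons stayed within 1.5 times the reported number, and so did the number called among all tested lines, which was not compared for the fit of the 7962 named lines alone, where fewer lines are tested. A limit of 0.5 TPM left 14 lost genes (without Mmp9, Mmp25 and Timp2), a limit of 2 TPM gave 23, and 5 percent of the highest mean elsewhere gave 14, of which 13 were shared with the reported 17. Without 2iL replicate 3 the number lost was 17, and without 2iL replicate 5 it was 19. Of 7623 recomputed changes of single genes, 119 lost their call and 46 gained one. A further 7 changed sign with a call in the reported or the recomputed fit. The other 7451 stayed on the same side of the threshold. Among these, changes called in neither fit could change sign, as Mmp23 did in 2iL against SL (-0.06, range -0.20 to 0.08). The 7 came only with quantile normalisation: in 2iL against SL Mmp28 was 0.32, Lamb3 0.47 and Adamts15 0.14, and in 2iL-F against 2iL Itgb2 was -0.0357, Mmp25 -0.35, Adam23 -0.20 and Itga4 -0.35. The cause was not tested. Quantile normalisation moved 19 of 313 called changes by over 1.5 times. The replicate block called 51, 37, 50, 46, 40, 41 and 46 of the genes, in the order 2iL, A2iL, LCDM and 2iL-F against SL, 2iL-F against 2iL, A2iL against 2iL-F and LCDM against A2iL; deviations of same-numbered libraries correlated at -0.131 to 0.0746, and Mmp24 in A2iL against SL and Lama1 in LCDM against A2iL lost their calls with it. With 2 libraries per condition a fit without 1 of them rests on the spread of the other conditions. Depth is unknown, so the error of values near 0 TPM is too.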

Other observations

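Of the 22 matching genes that did not reach the level filter, Itgam, the alpha chain of a leukocyte integrin, came nearest, with 1 library at 1.19 TPM, in SL. Itgb6, Itgb8, Lamc3, Mmp7, Mmp8, Mmp16, Mmp21 and Timp4 were all under 1 TPM in each library, and so were Adam2, Adam3 and Adam5, family members known from sperm.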
